A study of Mus musculus with 36 samples.

Results

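The 9 genes followed here, Dppa3, Prdm1, Prdm14, Ifitm1, Ifitm3, Tcfap2c, Kit, Dnd1 and Nanos3, are known for their part in mouse primordial germ cells. They were chosen by name, as all probes of the deposited expression table whose gene symbol was one of these 9, out of 30869 symbols in the table. The table held 18 such probes, namely 5 for Ifitm1, 3 each for Kit and Tcfap2c, 2 for Prdm1 and 1 for each other gene. The study profiled 16 regions dissected from wildtype MF1 mouse embryos during axis elongation on 36 Illumina bead arrays, which carry short probes for most mouse genes. The E7.5 regions were anterior (A, 3 arrays), posterior (P, 2 arrays) and proximal posterior (PP, 2 arrays). At E8.5, in embryos of 2 to 5 somites, they were, along the midline, the rostral node (RN, 2 arrays), node-streak border (NSB, 3), anterior streak (St1, 2) and posterior streak (St5, 2), and beside it the caudal lateral epiblast (CLE, 3). The tail bud was sampled at its chordoneural hinge (CNH) at E9.5, E10.5, E11.5, E12.5 and E13.5, and behind this hinge (P-CNH) at E9.5, E10.5 and E11.5, with 3 arrays for the E11.5 CNH and 2 for each of the others, 17 arrays in all. Every array held RNA of 6 to 74 pooled pieces of 1 kind, so replicates are pools and do not show how embryos differ.

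Primordial germ cells are the founders of sperm and eggs. In the mouse they are set aside in the proximal posterior epiblast, where BMP signals from the extraembryonic ectoderm and WNT3 signalling let a few cells switch on Prdm1 and Prdm14. They then gather at the base of the allantois, just behind the primitive streak, before they enter the hindgut and travel to the gonads. Prdm1 and Prdm14 encode the transcriptional regulators that start the germ cell programme, and Tcfap2c encodes a transcription factor that acts with them. Dppa3, also called Stella, is a classic marker of germ cells that have been specified, Ifitm1 and Ifitm3 encode small interferon-induced membrane proteins, Kit encodes the receptor for Kit ligand, and Dnd1 and Nanos3 encode RNA-binding proteins needed for germ cell survival.

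The labels place the arrays in 3 batches of 12. Both St5 arrays were in batch 1 with RN, St1, E10.5 and NSB replicates 1 and 2, and both PP arrays were in batch 3, while P was in batch 2 only. Between 10814 and 16256 probes were detected on an array, with a median of 15054, where detected means a deposited detection p-value under 0.01. The PP arrays had 15371 and 16241 detected probes, and the St5 arrays had 15481 and 15926. The E8.5 CLE arrays had fewer, from 11062 to 14747, and the signal over background across all arrays ran from 2.17 to 12.2. With 2 or 3 arrays a region, their number limits the precision of every value below.

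A probe was tested when it was detected on at least 1 array, which 21712 of 45281 probes were. Of the members, 11 of the 18 probes and 6 of the 9 genes passed, and the other 7 probes were not tested. Dppa3 and the Kit probe ILMN_1216898 passed only because they were detected in St5, so they had to be higher there. Levels are log2 intensities after background correction and quantile normalization, and differences come from limma fits with a term for each region and each batch. A probe is called when its adjusted p is at most 0.05 and its fold change at least 1.5. Probes bind with different strength, so levels of different probes are not compared as amounts, and the brightest probe of a list need not mark its most abundant transcript.

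Prdm1, Prdm14 and Nanos3, which include both regulators that start the programme, were detected on 0 of 36 arrays. The lowest detection p-values of the Prdm1 probes ILMN_2597923 and ILMN_2744650 were 0.153 and 0.0406, and that of the Prdm14 probe ILMN_3037312 was 0.11. The Nanos3 probe ILMN_2720493 came closest to detection, at 0.0107, and its highest level, 6.60, lay in the tail bud. In bulk pieces a transcript held by few cells can stay under the detection limit, so these readings do not show that the genes were silent. The other untested probes, 2 of the 5 for Ifitm1 and 1 of the 3 for Kit, were also detected on no array, while other probes of the same genes were.

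**Figure D1:**
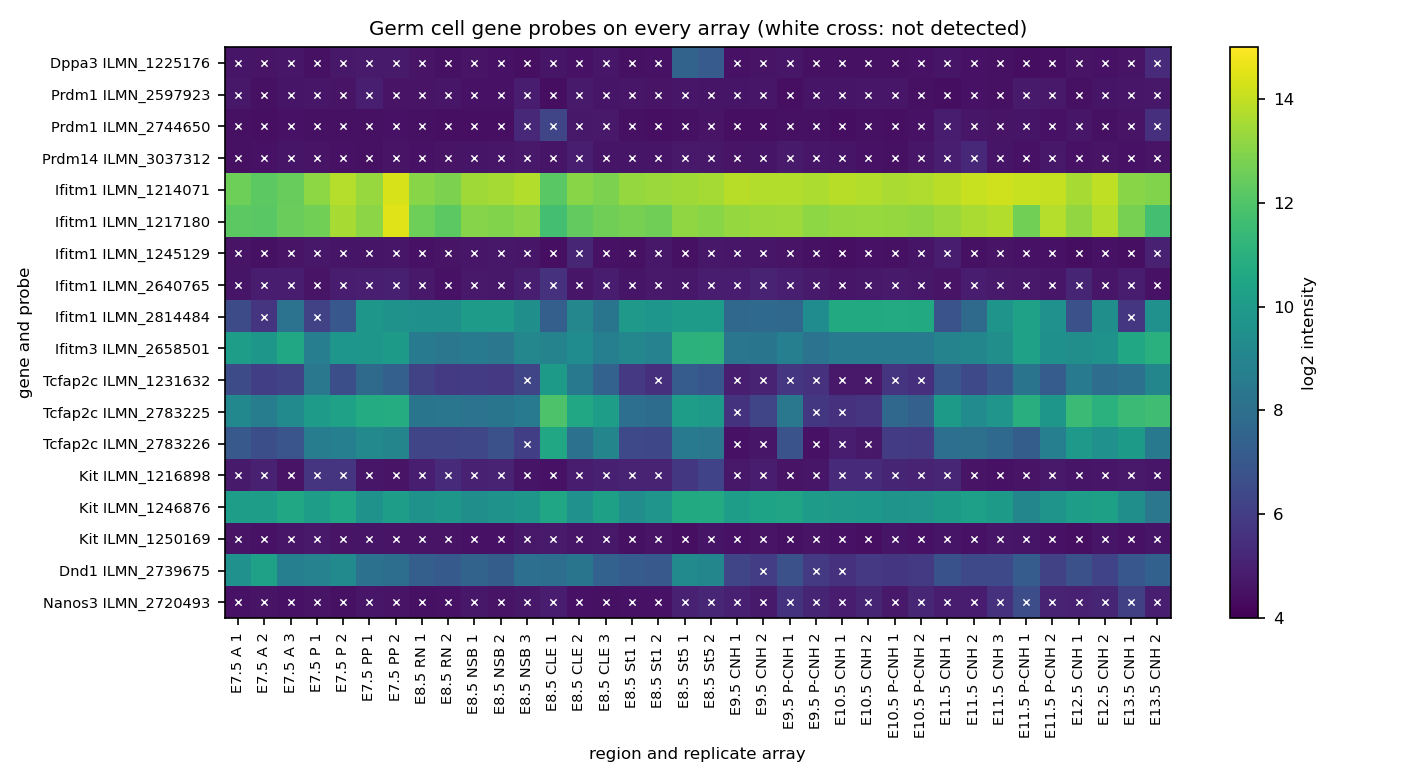
Log2 intensity (colour) of the 18 probes of the 9 genes on each of the 36 arrays, ordered by age and region; a white cross marks an array on which the probe was not detected. Dppa3 is detected on 2 arrays, both of E8.5 St5, whereas Ifitm3 and 2 of the Ifitm1 probes are detected on all 36.

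RefSeq promoters of build GRCm38.p6, each 300 bases with 250 before and 50 after the start, matched 5 of the 9 members: Prdm1, Ifitm1, Ifitm3, Kit and Nanos3. Dppa3, Prdm14, Tcfap2c and Dnd1 had no entry. Those of Ifitm3 and Ifitm1, which lie close together on chromosome 7 and differed in pattern, and of Kit are shown with the letters that matched a searched motif in capitals. Ifitm3 lies at chr7:141010695-141010994 on the minus strand, Ifitm1 at chr7:140967826-140968125 on the plus strand and Kit at chr5:75574737-75575036 on the plus strand, and all are written 5′ to 3′ on the gene's own strand.
Ifitm3: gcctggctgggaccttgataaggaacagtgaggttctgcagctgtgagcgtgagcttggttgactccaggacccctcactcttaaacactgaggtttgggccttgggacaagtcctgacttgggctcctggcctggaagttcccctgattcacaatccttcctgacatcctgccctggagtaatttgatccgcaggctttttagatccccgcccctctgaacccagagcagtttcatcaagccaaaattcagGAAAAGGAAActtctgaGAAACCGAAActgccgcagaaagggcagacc
Ifitm1: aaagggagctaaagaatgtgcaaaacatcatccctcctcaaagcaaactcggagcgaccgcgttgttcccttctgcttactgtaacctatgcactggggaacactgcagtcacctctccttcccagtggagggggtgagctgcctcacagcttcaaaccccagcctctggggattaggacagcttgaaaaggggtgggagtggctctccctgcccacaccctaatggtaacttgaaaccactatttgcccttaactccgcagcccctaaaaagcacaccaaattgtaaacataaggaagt
Kit: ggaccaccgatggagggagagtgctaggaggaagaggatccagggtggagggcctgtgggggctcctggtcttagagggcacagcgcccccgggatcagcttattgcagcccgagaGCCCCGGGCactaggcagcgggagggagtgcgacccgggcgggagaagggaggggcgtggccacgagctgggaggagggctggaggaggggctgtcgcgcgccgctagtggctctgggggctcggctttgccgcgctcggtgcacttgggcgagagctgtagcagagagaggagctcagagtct
The motifs, chosen with the sequences in view and searched on both strands, were GAAA, any 2 bases and GAAA again, as in interferon response elements, GCCNNNGGC as bound by AP-2 factors such as the product of Tcfap2c, and the octamer ATGCAAAT. Ifitm3 held 2 matches of the interferon type, GAAAAGGAAA and GAAACCGAAA, starting 2 and 19 bases after the start, and Ifitm1 held none in its window. Kit held 1 match of GCCNNNGGC, GCCCCGGGC, which begins 134 bases before the start, and Nanos3 also held 1, while Prdm1 held no match of any of the 3 motifs. Among 32851 promoters of the same length, 3.44% held the interferon type, 16.6% GCCNNNGGC and 1.74% ATGCAAAT, which no member held. A match is a string of letters and says nothing of binding.

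Dppa3, the marker of specified germ cells, separated the posterior streak at E8.5 from every other region. On the St5 arrays the Dppa3 probe ILMN_1225176 read 7.51 and 7.18. The other 34 arrays ran from 4.42 to 5.36 with a median of 4.55, and none of them detected it. In E8.5 RN it read 4.56 and 4.49, in NSB 4.58, 4.53 and 4.46, in CLE 4.61, 4.55 and 4.68, and in St1 4.49 and 4.52. Both St5 arrays are thus high, all 10 other E8.5 arrays are undetected, and the groups do not overlap. The mean was 7.35 ± 0.24 (SD, n = 2) in St5 against 4.55 ± 0.06 (n = 10) in the other E8.5 regions, a fitted log2 difference of 2.77 (SE 0.169, adjusted p = 2.96e-10). The probe passed the filter only through St5, so a higher value there was built in and the p-value adds no support. Because the other side was not detected, its arrays were also raised to the lowest level detected on each, which gives a lower bound, and Dppa3 was at least 2.71-fold higher in St5. Over 12 alternatives the fitted difference ran from 1.19 to 2.87, so this bound holds for the main processing only. Such a difference in a bulk piece can come from more cells that express a gene or from more RNA per cell, which cannot be told apart here.

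At E7.5, Dppa3 was detected in no region. PP read 4.78 and 4.81, A read 4.63, 4.59 and 4.66, and P read 4.50 and 4.69. The PP arrays lay just above the other 5 without overlap but within background, and the fitted difference of 0.13 (SE 0.183, adjusted p = 0.818) did not pass. In the tail bud its 17 arrays ran from 4.42 to 5.36 with a median of 4.53. Its highest undetected value, 5.36, came from E13.5 CNH replicate 2, the array with the fewest detected probes.

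**Figure D2:**
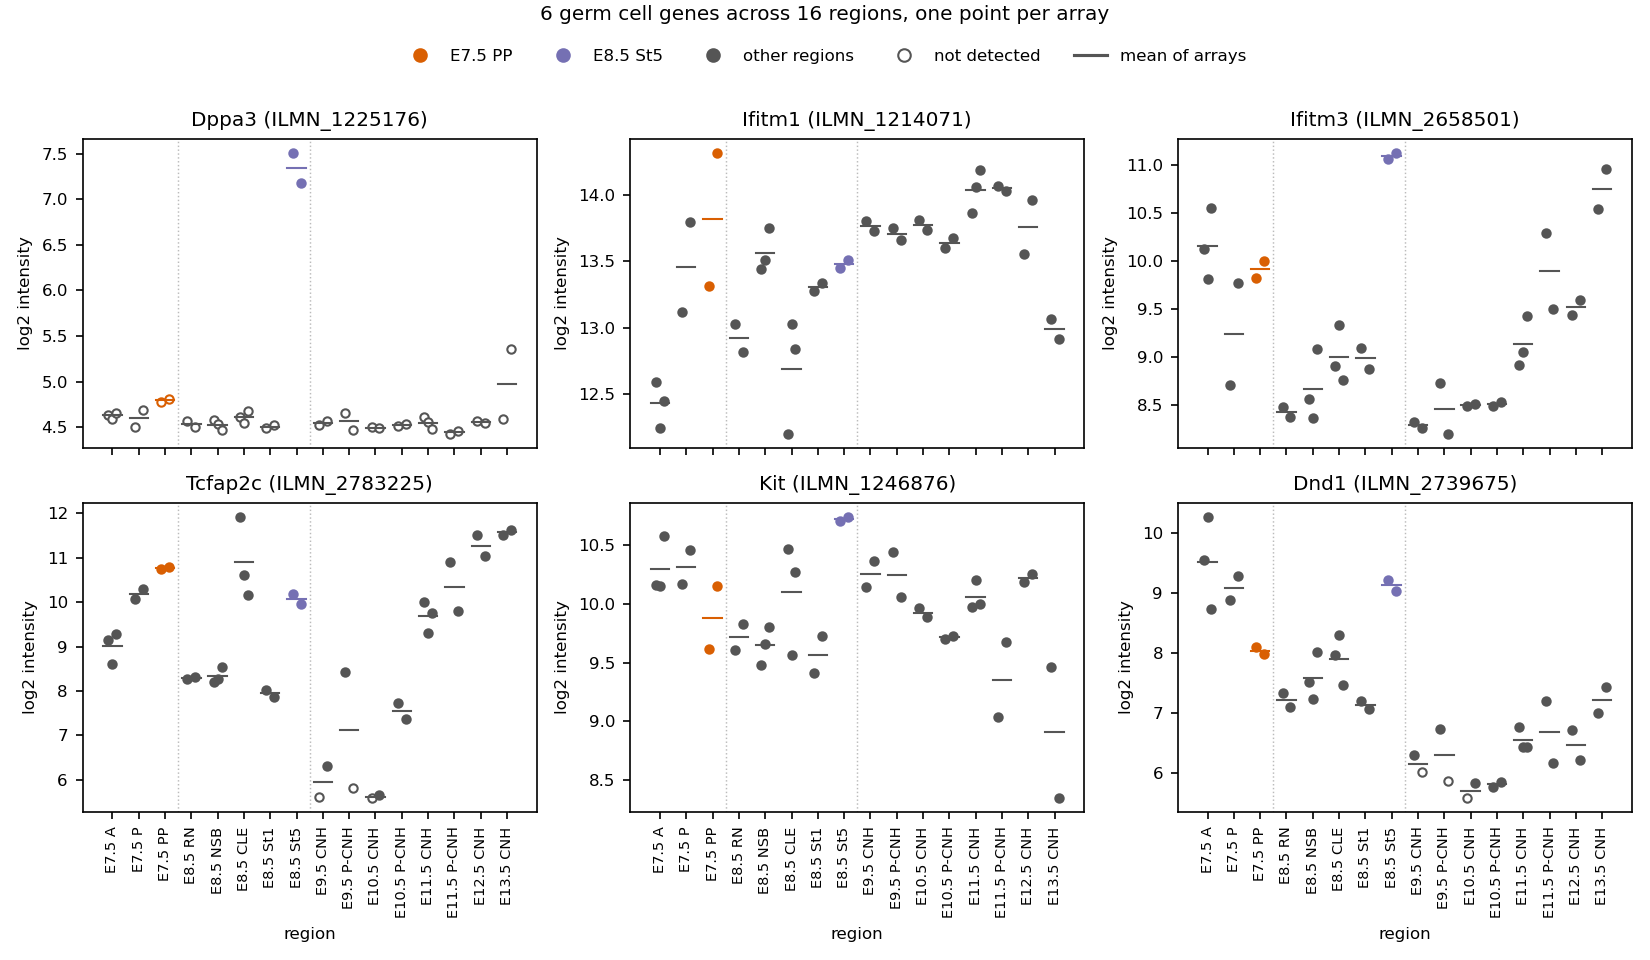
Log2 intensity of 1 probe for each of the 6 detected genes in the 16 regions; each dot is an array, open where the probe was not detected, and each bar is the region's mean. Dppa3, Ifitm3 and Kit have their highest mean in E8.5 St5, and Dnd1 has it in E7.5 A.

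Ifitm3, also called Fragilis, was detected on all arrays and was likewise highest in St5. The St5 arrays read 11.07 and 11.13 with probe ILMN_2658501. In RN it read 8.49 and 8.38, in NSB 8.56, 8.36 and 9.09, in CLE 8.91, 9.34 and 8.76, and in St1 9.10 and 8.88. Every one of the other 10 E8.5 arrays is below both St5 arrays, by a gap wider than their own spread. The mean of 11.10 ± 0.04 (SD, n = 2) stood against 8.79 ± 0.33 (n = 10), a log2 difference of 2.52 (SE 0.267, adjusted p = 8.41e-07), or 5.72-fold.

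Ifitm3 was not confined to St5. E13.5 CNH read 10.54 and 10.96, second in the order of regions and just below St5 with no overlap, and E7.5 A read 10.13, 9.81 and 10.56. At E7.5, PP read 9.83 and 10.00 and P read 8.71 and 9.78, so the proximal posterior arrays fall inside the range of the anterior ones. The fitted difference of PP from A and P was 0.02 (SE 0.289, adjusted p = 0.983), and its sign changed with the processing. Of the 15 pairs of neighbours in the order of its 16 region means, 13 overlapped, and the lowest region was E9.5 CNH, at 8.33 and 8.27.

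Ifitm1 behaved differently from Ifitm3 across the same regions. Its probe ILMN_1214071 was bright on all arrays, from 12.20 to 14.32, and 14 of the 15 pairs of neighbours in its order overlapped. At E7.5 PP read 13.31 and 14.32, A read 12.59, 12.25 and 12.45, and P read 13.12 and 13.80. PP is above A and overlaps P. Against A and P together the difference was 0.69 (SE 0.259, adjusted p = 0.177), which did not pass, and it rested on the PP replicates, being 0.19 (adjusted p = 0.843) without replicate 2 and called without replicate 1, at 1.20 (adjusted p = 0.0295). Over 12 alternatives it ran from 0.25 to 1.37 and was called under 2. Against A alone Ifitm1 was higher by 1.24 (adjusted p = 0.00397). St5 read 13.45 and 13.51, inside the range of the other E8.5 arrays, which ran from 12.20 to 13.75, and the difference of 0.43 (adjusted p = 0.588) did not pass. With this probe the highest mean, 14.05, was in E11.5 P-CNH and the lowest, 12.43, in E7.5 A, but the other probes ordered the regions differently. ILMN_1217180 had its highest mean in E7.5 PP, at 13.09 and 14.45, where P read 12.66 and 13.56, and its lowest in E13.5 CNH. ILMN_2814484 read 9.80 and 9.62 in PP, 6.54, 5.66 and 8.19 in A and 6.19 and 6.98 in P. Here both PP arrays are clear of A and P, and the fitted difference of 1.12 (SE 0.427, adjusted p = 0.191) did not pass. It ran from 0.71 to 3.02 over 12 alternatives and was called under 4 of them, with 3.02 (adjusted p = 0.0366) without a batch term. The 3 tested Ifitm1 probes followed each other with Pearson r of 0.73 to 0.90 over the 16 regions, whereas Ifitm1 and Ifitm3 had r = -0.24.

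Kit, the receptor through which germ cells receive a survival signal, is also carried by blood progenitors and other cells. Probe ILMN_1246876 read 10.70 and 10.74 in St5. In RN it read 9.61 and 9.83, in NSB 9.48, 9.66 and 9.80, in CLE 10.46, 9.57 and 10.27, and in St1 9.41 and 9.72. Both St5 arrays are above all 10 others, although 2 CLE arrays come near them. The mean was 10.72 ± 0.03 (SD, n = 2) against 9.78 ± 0.34 (n = 10), a log2 difference of 1.06 (SE 0.266, adjusted p = 0.0154). This call rested on single arrays, since without St5 replicate 1 it was 1.08 (adjusted p = 0.135), without St5 replicate 2 it was 1.04 (adjusted p = 0.178) and without NSB replicate 1 it was 1.01 (adjusted p = 0.0527).

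A second Kit probe, ILMN_1216898, was detected on 2 arrays, the St5 arrays, at 5.80 and 6.22, with the other 34 between 4.55 and 5.70. The St5 arrays are the highest, but both E7.5 P arrays, undetected at 5.70 and 5.69, come close to the lower of them. This probe also passed the filter only through St5, so a higher value there was built in. The difference was 0.87 (SE 0.194, adjusted p = 0.00543), with a bound of at least 1.07-fold. Without St5 replicate 2 it was 0.66 (adjusted p = 0.268) and no longer called. At E7.5 the brighter probe read 9.61 and 10.15 in PP, 10.16, 10.15 and 10.58 in A, and 10.16 and 10.46 in P. The lower PP array is below all of A and P, the other is level with their lowest, and the fitted difference of -0.22 (adjusted p = 0.796) did not pass. The lowest mean of the brighter probe was in E13.5 CNH, at 9.46 and 8.35, a region that overlapped its neighbour E11.5 P-CNH.

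Dnd1, whose protein guards germ cell transcripts, had a pattern of its own, with its highest mean in E7.5 A and its lowest in E10.5 CNH. St5 read 9.22 and 9.03 with probe ILMN_2739675. In RN it read 7.33 and 7.10, in NSB 7.52, 7.24 and 8.02, in CLE 7.96, 8.29 and 7.46, and in St1 7.20 and 7.07. The St5 arrays stand clear of the other 10. Their mean of 9.13 ± 0.14 (SD, n = 2) against 7.52 ± 0.43 (n = 10) gave a log2 difference of 1.91 (SE 0.317, adjusted p = 0.000277), or 3.76-fold.

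At E7.5 the order was the other way round. A read 9.55, 10.28 and 8.73 for Dnd1, P read 8.89 and 9.28, and PP read 8.09 and 7.98. Both PP arrays are below all 5 arrays of A and P. The difference of -0.93 (SE 0.343, adjusted p = 0.172) against A and P together did not pass, whereas against A alone it fell by 1.21 (adjusted p = 0.0413). Without A replicate 3 the difference from A and P was called too, at -1.24 (adjusted p = 0.0413), as it was under 2 of 12 alternatives, which ran from -1.33 to -0.64. In the tail bud the 17 arrays ran from 5.58 to 7.43 with a median of 6.29, and 14 of them detected it. Against E8.5 the tail bud regions were lower by a log2 difference of -1.88 (SE 0.262, adjusted p = 1.8e-05), with means of 6.37 ± 0.54 (n = 17) and 7.79 ± 0.74 (n = 12). Dnd1 was the only member called among the 11 tested probes in that comparison, in which 12.1% of all tested probes were called.

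Tcfap2c, the transcription factor that acts with Prdm1 and Prdm14, had the only member probe called in PP against A and P. It is also a regulator of surface ectoderm and trophoblast. Its probe ILMN_2783226 read 9.19 and 8.99 in PP, 7.08, 6.65 and 6.91 in A, and 8.62 and 8.73 in P. PP is the highest of the 3 regions, P is close below it and A is well apart. The difference of PP from A and P was 2.17 (SE 0.462, adjusted p = 0.00656), with means of 9.09 ± 0.14 (SD, n = 2) and 7.60 ± 0.99 (n = 5). Without PP replicate 1 the adjusted p was 0.113, at a difference of 2.07, and the call was lost. Over 12 alternatives the difference ran from 1.14 to 2.84. The call was kept under 8 of them and lost without a batch term (1.31, adjusted p = 0.168), with ComBat without covariates (1.14, adjusted p = 0.441), with the BeadChip as a random block (1.37, adjusted p = 0.245) and in batch 3 alone (2.18, adjusted p = 0.846).

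The brightest Tcfap2c probe, ILMN_2783225, showed the same order without passing. In PP it read 10.75 and 10.79, in A 9.15, 8.62 and 9.28, and in P 10.07 and 10.30. The difference of 1.69 (SE 0.49) had an adjusted p of 0.0598, and the remaining probe, ILMN_1231632, gave 0.98 (adjusted p = 0.405). All 3 probes followed each other closely, with r of 0.97 to 0.98 over the 16 regions. Against A alone the brightest probe was higher by 2.17 (adjusted p = 0.00818), and without A replicate 3 its difference from A and P was called, at 2.10 (adjusted p = 0.0163). It was also called under 4 of 12 alternatives, which ran from 0.72 to 1.78. Since P was in batch 2 and PP in batch 3, they can be compared only through regions that both batches hold.

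At E8.5 Tcfap2c divided the regions in another way. Its brightest probe read 11.93, 10.61 and 10.16 in CLE, 10.18 and 9.95 in St5, 8.27 and 8.32 in RN, 8.20, 8.27 and 8.53 in NSB and 8.02 and 7.87 in St1. CLE and St5 are high and overlap, and RN, NSB and St1 are low. St5 against the other 4 regions gave 1.35 (SE 0.452, adjusted p = 0.1), which did not pass. It was called under 5 of 12 alternatives, which ran from 1.14 to 2.29, and so was ILMN_2783226, from 0.82 to 2.64. Without CLE replicate 1 the probe ILMN_2783226 was called, at 1.35 (adjusted p = 0.0472). Within batch 1, which holds no CLE array, the difference of the brightest probe, ILMN_2783225, was 1.91 (SE 0.111, adjusted p = 2.62e-07).

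Tcfap2c also had the widest course in the tail bud. Its brightest probe read 5.60 and 6.31 in E9.5 CNH and 5.59 and 5.65 in E10.5 CNH, then 10.00, 9.30 and 9.76 in E11.5 CNH, 11.51 and 11.03 in E12.5 CNH and 11.52 and 11.64 in E13.5 CNH. The tissue posterior to the hinge read 8.42 and 5.80 at E9.5, 7.73 and 7.37 at E10.5 and 10.90 and 9.80 at E11.5. E9.5 and E10.5 hinge arrays are near the detection limit, later ones are far above it, and the posterior tissue is clear of the hinge at E10.5 but overlaps it at E9.5 and E11.5. Over E9.5 to E11.5 the posterior tissue was higher by 1.49 (SE 0.308, adjusted p = 0.0166), the only member called of 11 tested probes, in a comparison where 0.599% of all probes were called. It was kept under 7 of 11 alternatives and lost without background correction (1.02, adjusted p = 0.0569), with an offset of 100 (0.98, adjusted p = 0.0816), without a batch term (1.25, adjusted p = 0.0776) and with ComBat without covariates (1.17, adjusted p = 0.147). That call was lost without any of 5 arrays, replicate 1 of the hinge at E9.5 and E10.5 and replicate 1 of P-CNH at E9.5, E10.5 and E11.5, with adjusted p from 0.0589 to 0.268. The difference itself ran from 0.98, without E9.5 P-CNH replicate 1, to 1.75 when single arrays were left out. Without E11.5 P-CNH replicate 1 or E9.5 P-CNH replicate 2 the probe ILMN_2783226 was called, at 1.39 and 1.30. Surface ectoderm markers also rose from E11.5 on. At E10.5, where Tcfap2c in the posterior tissue was clear of the hinge, they differed little between posterior tissue and hinge. Their summed level had means of 379, 514, 1120, 2284 and 6452 in the CNH from E9.5 to E13.5, and of 649, 537 and 2564 in P-CNH at E9.5, E10.5 and E11.5. Over P-CNH against CNH limma called 0 of 7 of them, with 3 at an unadjusted p under 0.05 and a median of 0.61 against -0.00 over all probes, and Dlx5 was detected in no tail bud region. In the same comparison 4 of 5 gut endoderm genes were called lower, with a median of -1.59. Of 3 tested neural crest genes 1 was called higher, with a median of 0.11. The part of these tissues in the Tcfap2c values was not tested. In the order of its regions, 5 of 15 pairs of neighbours did not overlap, the most among the brightest probes of the 6 genes.

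Counts over the tested members are given as description. In St5 against the other E8.5 regions, 5 of 11 tested member probes were called, all higher, beside 5.47% of all 21712 tested probes. By 1 probe a gene they were 4 of 6 genes, Dppa3, Ifitm3, Dnd1 and Kit, and the median log2 difference of the 6 was 1.63 against -0.00 over all tested probes. All 11 were positive. Dppa3 and the fainter Kit probe could be tested only because St5 detected them, so a call was favoured for them, and of the 9 probes that other regions also detected 3 were called. In PP against A and P, 1 of 11 member probes was called, beside 3.55% of all probes. By 1 probe a gene limma called 0 of 6, with 3 of 6 at an unadjusted p under 0.05, and their median was 0.07 against -0.01 over all probes. Leaving out single arrays moved the St5 count between 3 and 6, with 3 without St5 replicate 2, and the PP count between 1 and 3, with 3 without A replicate 3.

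**Figure D3:**
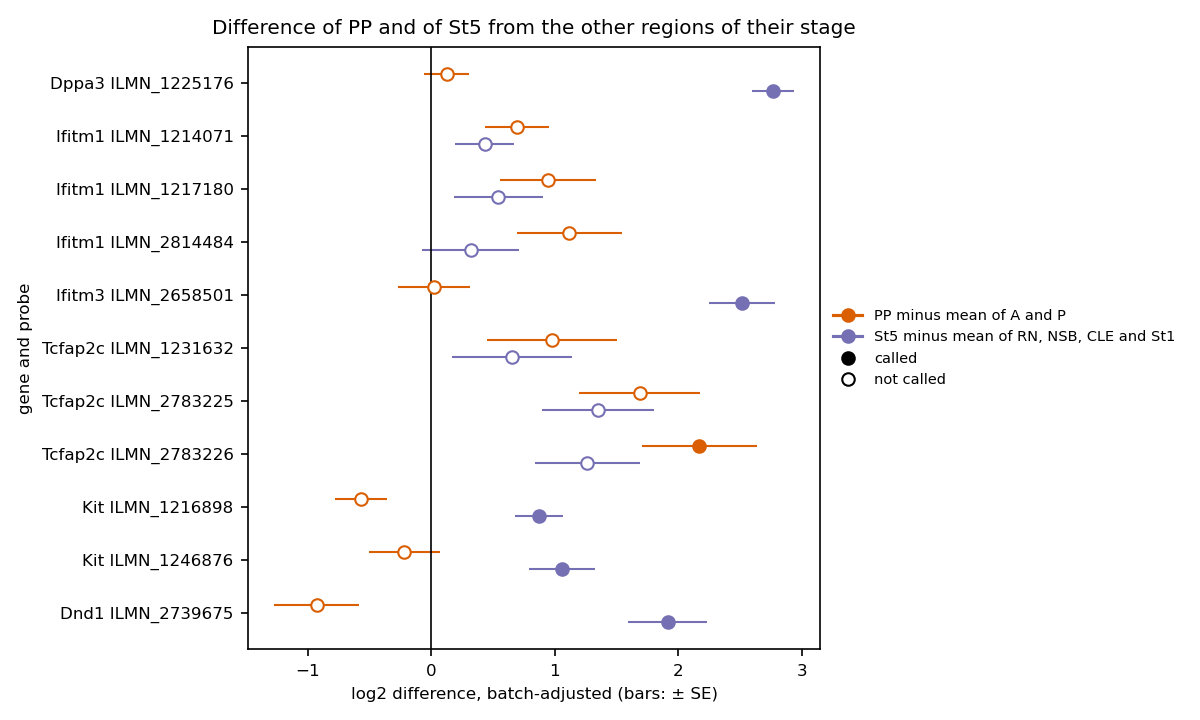
Log2 difference of E7.5 PP from A and P and of E8.5 St5 from RN, NSB, CLE and St1 for the 11 tested probes, with bars of 1 standard error; filled points were called. For Dppa3, Ifitm3 and Dnd1 the St5 point is at 2.77, 2.52 and 1.91 and the PP point at 0.13, 0.02 and -0.93.

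The test of the difference between these differences called 4 of 11 member probes, all lower in PP, where 2.82% of all probes were called, a count of 612 that was 304 to 771 without single arrays. For Dppa3 and the fainter Kit probe, which passed the filter only through St5, a lower value was built in, and of the other 9 probes 2 were called, Ifitm3 and Dnd1. Dppa3 gave -2.64 (SE 0.246, adjusted p = 4.33e-07), Ifitm3 -2.49 (SE 0.389, adjusted p = 0.000361) and Dnd1 -2.84 (SE 0.461, adjusted p = 0.00056). Over 11 alternatives the Dppa3 value ran from -2.70 to -1.17. The brighter Kit probe gave -1.28 (adjusted p = 0.0888), called under 6 of 11 alternatives, and the fainter one -1.44 (adjusted p = 0.00379). No E7.5 array detected the fainter probe, so the -0.57 that PP adds to its value lies between background readings, 4.67 and 4.59 in PP against 5.70 and 5.69 in P. Without St5 replicate 2 the fainter probe gave -1.23 (adjusted p = 0.0584) and was not called. Ifitm3 was raised in St5 and did not pass in PP, while the Dnd1 value joins a higher level in St5 to a lower reading in PP. The Tcfap2c and Ifitm1 probes did not pass this test.

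Set directly against each other, PP and St5 had 1 of 11 member probes called, Dppa3, for which a lower value in PP was built in, and 0 of the 9 probes that other regions also detected. Of all probes 1.03% were called, a count of 223 that was 85 to 195 without single arrays. Dppa3 was lower in PP by a log2 difference of -2.46 (SE 0.304, adjusted p = 0.000112), a bound of at least 3.25-fold. Over 11 alternatives the Dppa3 difference ran from -2.61 to -1.12, so the bound holds for the main processing only. Ifitm3 had a difference of -1.81 (adjusted p = 0.0714), Dnd1 -1.73 (adjusted p = 0.169) and Kit -1.07 (adjusted p = 0.375). These were called under 6, 3 and 3 of 11 alternatives. These regions lie in batches 3 and 1, which share NSB alone, through its replicate 3, so the batch term enters this comparison fully.

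Against the 14 regions that are neither, St5 had 3 of 11 member probes called, and 2 of the 9 that other regions also detected. Beside them stood 2.80% of all probes, a count of 608 that was 266 to 762 without single arrays. Dppa3, for which a higher value in St5 was built in, was higher by 2.69 (SE 0.214, adjusted p = 4.97e-08). Ifitm3 was higher by 2.32 (SE 0.338, adjusted p = 0.000185) and Dnd1 by 2.61 (SE 0.401, adjusted p = 0.000318). Over 11 alternatives the Dppa3 difference ran from 1.17 to 2.89. PP against the same 14 regions had 2 called, both of Tcfap2c, where 14.1% of all probes were called, a count of 3070 that was 955 without PP replicate 1 and 1788 without PP replicate 2. The 2 probes were higher by 2.06 (adjusted p = 0.00293) and 2.51 (adjusted p = 0.000236). Markers of other tissues moved in PP too. Visceral endoderm had 7 of 7 called higher (median 4.79), gut endoderm 3 of 5 higher (1.35), endothelium 3 of 7 higher (0.87) and blood 4 of 6 lower (-3.64). In St5 against the 14, endothelium had 5 of 7 higher (1.98), and allantois 2 higher and 1 lower of 5 (1.26). The part of these tissues in the members' values was not tested. Single arrays added a call: without A replicate 3 the brighter Kit probe was called in St5, at 1.16 (adjusted p = 0.044), and without PP replicate 1 the Ifitm1 probe ILMN_1217180 was called in PP, at 1.41 (adjusted p = 0.048). Dnd1, too, was called in PP without any of A replicate 2, E13.5 CNH replicates 1 and 2, CLE replicate 2 and E11.5 P-CNH replicates 1 and 2, at 0.84 to 0.97. These 2 comparisons share their 14 regions.

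Taken singly, RN, NSB and St1 gave similar counts against St5, and CLE gave fewer. CLE had no array in batch 1, which held both St5 arrays, and its comparison was less precise. The median SE over all tested probes was 0.553 against CLE and 0.359 against each of RN, NSB and St1. Whether this lowered the CLE count was not tested. Against RN 6 of 11 member probes were called (6.05% of all probes), against NSB 7 (5.21%), against St1 7 (3.27%) and against CLE 2 (1.48%). For Dppa3 and the fainter Kit probe, which passed the filter only through St5, a higher value was built in. Of the 9 probes that other regions also detected, 4, 5, 5 and 1 were called, in the same order. Against CLE the called probes were Dppa3, higher by 2.62 (adjusted p = 2.42e-05), and Ifitm3, higher by 2.65 (adjusted p = 0.00265). Dnd1 was at 2.00 (adjusted p = 0.0812) and the brightest Tcfap2c probe at -0.32. For PP, the neighbour A gave 5 called probes (6.15% of all probes), of Ifitm1, Tcfap2c and Dnd1, and limma called 0 of 11 against P (0.792% of all probes), with 2 at an unadjusted p under 0.05. These comparisons share the St5 or the PP arrays.

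Within batch 1 alone, where St5 can be compared with RN, St1 and NSB replicates 1 and 2, the St5 differences were 2.82 for Dppa3, 2.47 for Ifitm3, 1.88 for Dnd1 and 1.10 for the brighter Kit probe. Their adjusted p-values from limma were 5.19e-09, 1.19e-08, 4.28e-07 and 1.53e-05, which measure them against the spread within this batch only. That spread was small: NSB replicates 1 and 2 had r = 0.9949, and replicates 1 and 3, of different batches, 0.9214. Ifitm3, Dnd1 and Kit stood higher in St5 within the batch as well as in the fit of all arrays, which includes these same arrays. For Dppa3 this was fixed by its detection in St5 alone. Within batch 3, PP can be set only against A replicate 3, and there Tcfap2c ILMN_2783226 was at 2.18.

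Some genes of the signals that specify germ cells were higher in each of the 2 regions. Of 22 listed, 17 were tested. In PP 8 of the 17 were called higher and 0 lower, beside 3.55% of all tested probes. Among the 8, Eomes was called from readings near background. The median of the 17 was 0.74 against -0.01 over all probes. Wnt3a, a WNT ligand of the streak, rose by 4.14 (SE 0.236, adjusted p = 1.82e-10) against the mean of A and P, although it read 12.42 and 12.92 in PP, 12.13 and 12.18 in P and was undetected in A. Mixl1 and Evx1, homeobox genes of the streak that were undetected on 3 and 2 of the 3 A arrays, rose by 3.57 and 3.27, and Msx1, a homeobox gene that responds to BMP, by 2.92. In St5 6 of 17 rose and 0 fell, beside 5.47% of all tested probes, with a median of 0.53 against -0.00. These shares, 3.55% in PP and 5.47% in St5, stand beside the counts of every list below. Bmp4, the BMP ligand needed for germ cells to form, rose by 3.38 (SE 0.389, adjusted p = 2.54e-06), from a mean of 8.70 ± 1.06 (n = 10) to 11.79 ± 0.17 (n = 2), Mixl1 by 3.36, and Id2 and Id1, which BMP signals switch on, by 1.81 and 1.33. Bmp2, Bmp8b, Smad9 and Msx2 were detected on no array, and Smad4 had no probe under that symbol.

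Of 25 listed genes shared by germ cells and pluripotent cells, 18 were tested. In PP 2 rose and 1 fell, beside 3.55% of all probes called, and the median was -0.24 against -0.01 over all probes. Klf5, a zinc finger factor of pluripotent cells, rose by 2.12 (SE 0.252, adjusted p = 1.12e-05), Fut4, whose enzyme makes the SSEA-1 antigen, by 1.13, and Utf1, a chromatin protein of stem cells, fell by 1.85. In St5 3 were called higher, 1 of them (Dppa4) from readings near background, and 2 fell, beside 5.47% of all probes called. The median there was 0.27 against -0.00. Esrrb, an orphan receptor of stem cells, rose by 2.37 (adjusted p = 2.4e-05) from near background, being detected on 1 of the other 10 arrays, and Klf5 by 1.37, although it overlapped CLE. Sox2, a factor that germ cells keep and the neural epiblast shares, was lower in St5, where neither array detected it, by at least 3.12-fold (adjusted p = 0.00237), and Elavl2, which encodes an RNA-binding protein, fell by 1.19.

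Genes of later germ cells, such as Ddx4 and Dazl, were mostly out of reach: 11 of 15 were detected on no array, and limma called 0 of the 4 tested in either region, with 0 at an unadjusted p under 0.05. Their medians were 0.17 in PP and -0.13 in St5. Of 11 chromatin genes 8 were tested, among them Dnmt3b, Uhrf1 and Prmt5, and limma called 0 of 8 in either, with 1 at an unadjusted p under 0.05 in PP and 0 in St5. Both medians were -0.13. Of 7 genes of migration and survival, 0 were called in PP, where 1 had an unadjusted p under 0.05, with a median of -0.11. Cxcl12, the chemokine that guides germ cells, was called in St5, with a difference of 3.06 (SE 0.378, adjusted p = 7.21e-06), and the median of the 7 was 0.26. Kitl, the ligand of the Kit receptor, was tested and was not detected on the arrays of PP or St5.

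Relatives of the members were listed together with them. Of 6 Ifitm genes 4 were tested, Ifitm6 and Ifitm7 being undetected, and Ifitm3 was the gene called in St5, with a median of 0.50. In PP 0 of 4 were called, 1 had an unadjusted p under 0.05 and the median was 0.18. Of 5 Tcfap2 genes 4 were tested, each by its brightest probe. By these probes limma called 0 in PP, with 1 at an unadjusted p under 0.05 and a median of 0.12. The Tcfap2c probe ILMN_2783226, which is not the brightest, was called there. Tcfap2a, a regulator of ectoderm, was called in St5 at 2.37 (SE 0.492, adjusted p = 0.0029), and the median was 0.83. It read 7.84 and 7.36 in St5, inside the range of CLE, at 7.26, 8.16 and 7.98, and was undetected on 6 of the other 7 arrays. Among mesodermal genes that germ cells keep low, Hoxb1 rose by 3.37 in PP, where it read 11.82 and 12.82 against 11.42 and 12.26 in P and undetected in A, and Fgf8 by 1.59, while in St5 Snai1 rose by 2.08 and Lhx1 fell by 0.79, although it was undetected in CLE.

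Markers of other tissues moved with the same regions. The posterior streak sits next to the allantois, the bud that forms the umbilical vessels, and 3 of 5 tested allantois markers were called higher in St5, beside 5.47% of all probes, with a median of 1.23 against -0.00 over all probes. Tbx4, the brightest probe of the list there and a T-box factor of the allantois and hindlimb, rose by 5.36 (SE 0.235, adjusted p = 1.07e-12) and Tbx2 by at least 1.96-fold. Pitx1 was called too, but 1 of 2 St5 arrays and none of the other 10 detected it, so its value rests on readings near background. The summed level of the list, in intensity units, was 3446 and 4718 on the St5 arrays, and its mean in the other E8.5 regions ran from 49.2 in CLE to 202 in RN. Vcam1 and Hoxa10 were not detected in St5. Endothelial genes likewise stood out, with 6 of 7 tested called higher in St5, beside the same 5.47%, and a median of 2.32 against -0.00. Tek, a receptor of vessels that 1 of the other 10 arrays detected, rose from near background by 2.58, Etsrp71, an early endothelial factor and their brightest probe, by 2.42, Cdh5 by at least 2.94-fold and Tal1 by at least 2.12-fold. Their summed level was 5042 and 5418 in St5 and had means of 828 to 1354 in the other E8.5 regions, and Kdr and Tie1 were not detected. Whether allantois or endothelial cells had a part in the St5 differences of Dppa3, Ifitm3, Kit and Dnd1 was not tested.

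In PP, 1 gene of the same lists was called. Allantois markers summed to 240 and 287, with Wnt2 the brightest probe, 1 of 5 called and a median of 0.32. The called gene, Tbx4, was detected on 1 of 2 PP arrays and on none of the 5 others, so its value rests on readings near background, while Hoxa10, Pitx1, Tbx2 and Vcam1 were not detected. Endothelial genes summed to 3991 and 2676, with means of 1977 in A and 1926 in P, and limma called 0 of 7, with 3 at an unadjusted p under 0.05 and a median of 0.56. Cdh5, Kdr, Pecam1 and Tie1 were not detected in PP. What did move with PP was the visceral endoderm, the layer that wraps the epiblast, with 4 of 7 markers called higher, beside 3.55% of all probes, and a median of 2.23 against -0.01. Rbp4 and Afp, which encode secreted carriers, rose by 3.32 and 2.59, values taken mostly against background since 1 of the 5 other arrays detected each, and the apolipoprotein genes Apoa2 and Apob by 2.79 and 2.23. The summed level was 37550 and 17860 in PP, 1992, 2051 and 10780 in A and 10650 and 5954 in P, with Ttr the brightest probe in PP and every marker detected there. Its part in the PP difference of Tcfap2c was not tested. In St5 limma called 0 of 7, with 3 at an unadjusted p under 0.05, a median of 0.59 and sums of 1968 and 2057, and Afp and Apoa2 were not detected.

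**Figure D4:**
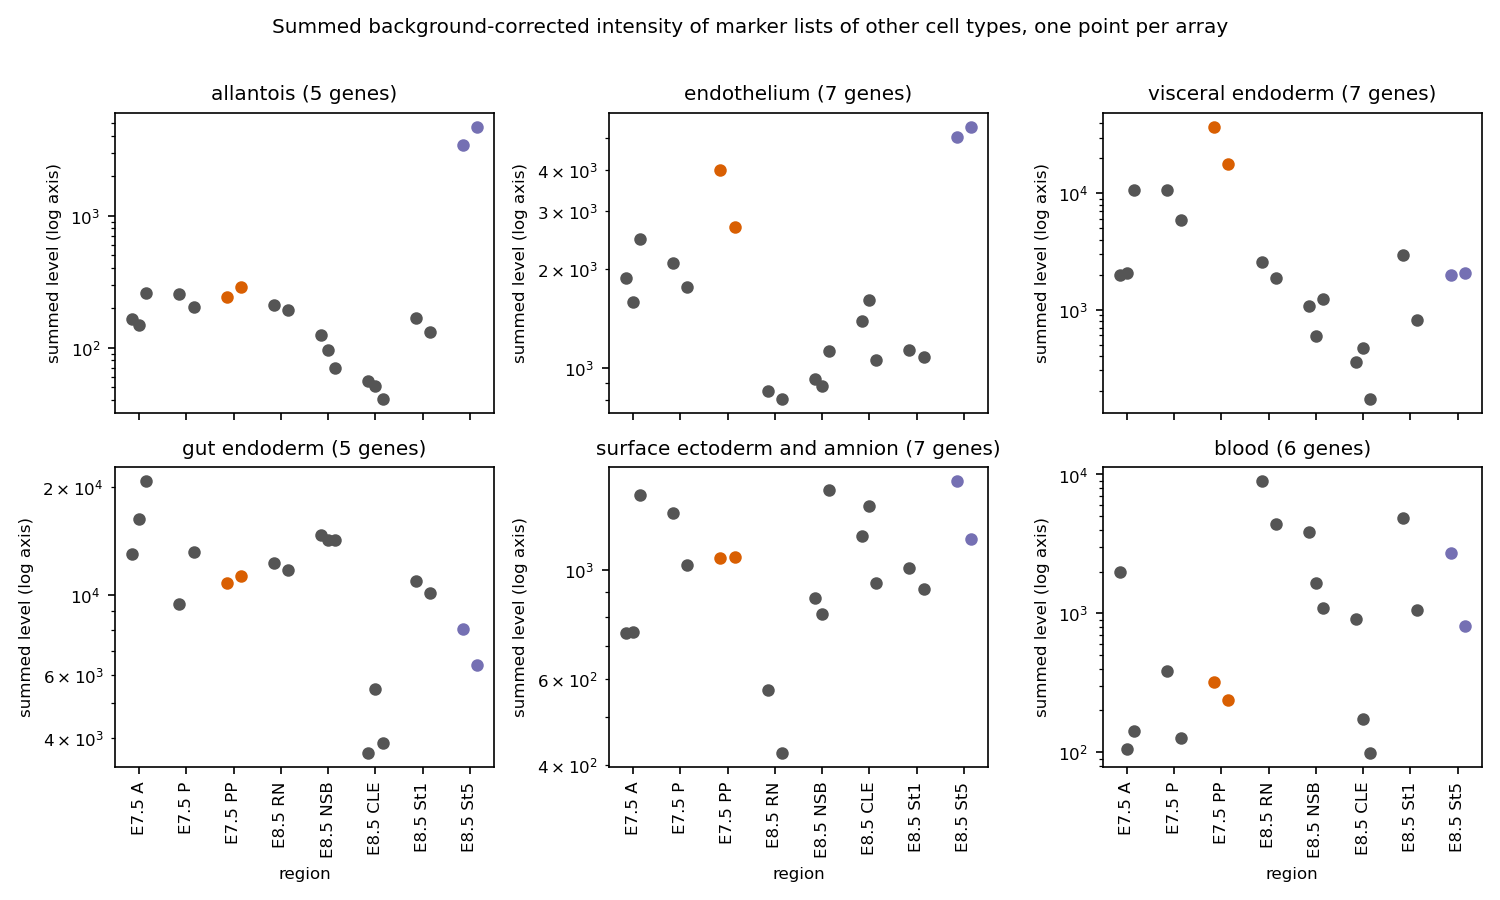
Summed level (intensity units, log axis) of 6 marker lists on each array of the E7.5 and E8.5 regions. Allantois markers reach 3446 and 4718 in St5 against 240 and 287 in PP, and visceral endoderm markers reach 37550 and 17860 in PP.

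Surface ectoderm and amnion, tissues in which Tcfap2c is also active, had 1 of 7 tested markers called in each region. Wnt6, a WNT ligand of the surface ectoderm, was called in PP at 2.29 (adjusted p = 0.0127). It read 8.85 and 8.01 in PP, overlapping the 8.81 and 7.12 of P, and was undetected in A. The list had sums of 1059 and 1063 in PP and a median of -0.07, and Tcfap2a was called in St5, with sums of 1520 and 1154 and a median of 0.75. Dlx5, Krt14, Krt15 and Trp63 were not detected in PP, nor were Dlx5, Krt15 and Trp63 in St5, where Wnt6 was the brightest probe. The other cell types gave less. Gut endoderm, with Cldn6 the brightest probe, had Sox17 called in St5 at 0.92 and Trh at -1.69. Sox17 read 8.77 and 8.67 there, below every St1 and NSB array, and was undetected in CLE, from which its positive value comes. The list had sums of 8041 and 6380 in St5 and a median of -1.08. In PP limma called 0 of 5 of these, with 1 at an unadjusted p under 0.05, sums of 10780 and 11300 and a median of -0.37.

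Blood markers, the globins and Alas2, were called in 0 of 6 by limma in PP and in St5, with 0 at an unadjusted p under 0.05 in each. Their sums were 318 and 237 in PP and 2718 and 815 in St5, with Hbb-b1 the brightest probe and medians of 0.82 and -0.21. Hbb-y was not detected in either region, nor were Alas2 in St5 and Hba-x and Hbb-bh1 in PP. Of the neural crest genes, Ednrb was called in St5 at 1.67, with RN alone of the other regions detecting it, and Sox10, Foxd3 and Tcfap2b were not detected in PP or St5. Trophoblast had Rhox9 called in St5, at least 1.11-fold higher, among 2 tested, with sums of 66.6 and 87.3, while PP summed to 24.1 and 34.1 with 0 called and 0 at an unadjusted p under 0.05. Their medians were 0.01 in PP and 0.81 in St5, and Elf5, Prl3d1 and Rhox6 were not detected in either. The part of any of these tissues in the members' values was not tested.

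Across the 16 regions the members did not move as 1 group. Dppa3 and Ifitm3 had a Pearson r of 0.76 (Spearman rho 0.47). Both are highest in St5, no other region detected Dppa3, and the value without St5 was not computed. Ifitm3 and Tcfap2c had r = 0.62, as did Ifitm3 and Dnd1, whereas Ifitm1 and Dnd1 had r = -0.52 and Kit and Ifitm3 r = 0.05. These are descriptions over 16 region means that share arrays and batches.

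The genes most like each member were sought over the same 16 fitted means, among 16780 probes whose means spanned at least 1 log2 unit. Dppa3 was detected in St5 alone, so 15 of its 16 means are background and the search can return only probes that stand out in St5. For Dppa3 they were LOC383491 and Nkx2-6 (r = 0.97 each), Tbx4 and Ren1 (0.96 each) and Grm6 (0.94). Ifitm3 was followed most closely by Prkcd (0.93), Ppp1r14a and 1200009I06Rik (0.90 each), Sertad1 (0.89) and Rab32 (0.88). Ifitm1 had T at 0.91, then Rspo3 and Oat at 0.85, 6230427J02Rik at 0.84 and Nab1 at 0.82. The list of Tcfap2c held Ahnak (0.88), St6galnac2 (0.87), and Dner and Tcfap2a (0.84 each). Kit had Wdr45l (0.92), Htra2 (0.89), Inppl1 (0.87), Ykt6 (0.86) and Hdgf (0.85), and Dnd1 had Ap1m2 (0.96), Prss8 (0.95), Sv2a and Ell3 (0.94 each) and 1810015A11Rik (0.93). Each r has n = 16, and the most alike of 16780 probes are high by selection.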

How the data were processed

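The authors deposited bead intensities and detection p-values for 45281 probes on 36 arrays, summarized without normalization; the intensity and p-value columns were read as given. With R 4.3.3 and limma 3.58.1, intensities were background corrected, quantile normalized and log2 transformed with neqc (offset 16), which inferred the negative controls from the detection p-values. The 21712 probes that any array detected (p-value under 0.01) were fitted together, with terms for 16 regions and 3 batches, leaving 18 residual degrees of freedom. Tests were two-sided and adjusted by Benjamini-Hochberg over all 21712 probes within a comparison, and the steps were tested on simulated data. The brightest tested probe stood for a gene. From context and marker lists, called genes were named, at most 4 per list and comparison by absolute difference; undetected or brightest genes, Kitl, Eomes and Dppa4 were named besides, after their values were seen. The 5 most alike genes were named per member; a few genes of these lists are not given here. The members and lists were chosen with earlier results of these data known. Figures were drawn with Python 3.11.15 and matplotlib 3.10.9. Alternatives changed background, offset, normalization, filter, batch handling, blocks and single arrays.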

Additional observations from a re-analysis of the deposited data

Results flagged for a closer look

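The difference of E7.5 PP from A and P differed from that of E8.5 St5 from RN, NSB, CLE and St1 in a direct test for 4 member probes, among which Dppa3 and the Kit probe passed the filter only through St5. Dppa3 had -2.64 (adjusted p = 4.33e-07), with -2.70 to -1.17 over 11 alternatives. Ifitm3 had -2.49 (adjusted p = 0.000361). The Kit probe ILMN_1216898 had -1.44 (adjusted p = 0.00379), of which -0.57 lies between E7.5 arrays that did not detect it. Dnd1 had -2.84 (adjusted p = 0.00056).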

How the results depend on the processing

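Ifitm3 and Dnd1 were called higher in St5 than in the other E8.5 regions under 12 of 12 alternatives and without each of 11 of their 12 arrays in turn; Dppa3 was too, as its detection in St5 alone fixed beforehand. Values below are numbers of member probes called of 11; the cause of a change was not tested. The difference of differences, with 4, ran from 3 to 5. In PP against A and P the count of 1 became 2 with cyclic loess, without background correction and with a larger offset (100), 3 without a batch term, 0 with ComBat without covariates, 6 with ComBat given the regions, 0 with the BeadChip as a random block and 0 in batch 3 alone. In St5 against its stage 5 became 4 without background correction and with the offset of 100, 7 with ComBat given the regions and with the BeadChip block, 8 with ComBat without covariates and 8 in batch 1 alone. In PP against 14 regions 2 became 4 with cyclic loess, 4 without a batch term, 5 with ComBat given the regions and 5 with the BeadChip block. In St5 against 14 regions 3 became 5 without a batch term, 8 and 7 with ComBat without and with the regions and 7 with the BeadChip block. In PP against St5 1 became 2 with the offset of 100, without a batch term, with the BeadChip block and without the filter, 3 with cyclic loess and 5 with either ComBat. In P-CNH against CNH 1 became 0 without background correction, with the offset of 100, without a batch term and with ComBat without covariates, and 2 with ComBat given the regions. In the tail bud against E8.5 1 became 2 with cyclic loess, 7 with ComBat without covariates and 2 with ComBat given the regions. An alternative chosen after seeing the data left out the 4 arrays with the fewest detected probes; the counts became 3 and 4 for PP (own stage, 14 regions), 7 and 5 for St5 (own stage, 14 regions), 4 for PP against St5 and 2 for P-CNH.

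Leaving out single arrays gave 1 to 3 (PP) and 3 to 6 (St5) against the own stage, 2 to 3 and 3 to 4 against 14 regions, 1 in each case for PP against St5, 3 to 4 for the difference of differences, 0 to 2 for P-CNH and 1 in each case for the tail bud. The lone array left in a region was then assumed to vary like the others. Without NSB replicate 3, batch 1 cannot be tied to the other batches, and 6 comparisons could not be fitted.

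With a replicate block, which treats equal replicate numbers as paired, the P-CNH count was 2 and Kit ILMN_1246876 in PP was 0.35, against -0.22. Deviations of equally numbered PP and A arrays correlated at 0.29 and -0.22, of PP and P arrays at 0.24, and of St5 and CLE arrays at -0.07 and 0.08, which is weak and of mixed sign. Those of St5 arrays and of RN, NSB and St1, which share their BeadChip, correlated at 0.23, 0.02 to 0.05 and 0.22, weak but all positive. The consensus correlation used for the BeadChip block was 0.48. Signs turned for 25 of 88 pairs of probe and comparison, none called: 6 in PP against St5 (Tcfap2c ILMN_2783226 from 1.16 to as low as -1.63), 5 in the difference of differences, 4 in P-CNH, 3 in PP against 14 regions, 2 each in St5 against 14 regions and the tail bud, and 3 in PP against A and P. The latter were Ifitm3, at -0.0046 without background correction, -1e-04 with the offset of 100, -0.044 with cyclic loess, -0.11 with ComBat without covariates, -0.64 in batch 3 alone and -0.25 to 0.29 without single arrays, Kit ILMN_1246876, at -0.49 to 0.0496 without single arrays, and Kit ILMN_1216898, at 0.062 in batch 3 alone. In St5 this last probe fell under 1.5-fold without background correction (0.40) and with the offset of 100 (0.32).

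Over all probes the number called ran over the alternatives from 0 to 1959 in PP and from 945 to 3138 in St5 against the own stage, from 1574 to 5894 and 516 to 2924 against 14 regions, from 204 to 4696 for PP against St5, from 508 to 1546 for the difference of differences, from 97 to 287 for P-CNH and from 1770 to 5329 for the tail bud. Single arrays moved these, in the same order, from 257 to 1172, 615 to 1310, 955 to 4355, 266 to 762, 85 to 195, 304 to 771, 85 to 197 and 2264 to 3207. Signal over background, as low as 2.17 in CLE replicate 1, limits what can be seen of faint probes such as those of Prdm1, Prdm14 and Nanos3.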
